A study of Homo sapiens with 8 samples.

Results

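Basal-like pancreatic cancer is the subtype whose tumours express genes of squamous and basal epithelia, and it is set against a classical or progenitor subtype that keeps features of the gastrointestinal lineage. The 9 genes described here are markers of the basal-like side that are not keratins: VGLL1, SCEL, FGFBP1, TNS4, CST6, FAM83A, TP63, UCA1 and CTSV. They were taken by symbol from a table of 58870 genes, and each symbol matched 1 row. In squamous tissue these genes have unlike jobs: 2 act on transcription (VGLL1 and TP63), SCEL belongs to the cornified envelope, CST6 and CTSV are a protease inhibitor and a protease, FGFBP1, TNS4 and FAM83A act in growth factor and adhesion signalling, and UCA1 is a long non-coding RNA. TP63 is the master regulator of squamous identity, and cofactors of the VGLL family compete with YAP and TAZ for the TEAD factors.

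RNA sequencing was performed on Panc 10.05, an established line of human pancreatic ductal adenocarcinoma. There were 4 control libraries and 4 libraries of cells labelled as ELAPOR1 overexpression. ELAPOR1 encodes an endosomal and lysosomal membrane protein. The title of the study gives its question as whether ELAPOR1 induces the classical/progenitor subtype. How overexpression was achieved, what the control cells carried, and whether the cells were 1 clone or a pool are not stated. Whether replicates came from separate cultures is not stated either, so p-values measure the spread between these libraries, which may be technical. Totals were 16558597 to 18128732 counts in control and 13765504 to 17258149 counts in ELAPOR1 libraries. ELAPOR1 itself had 1 to 4 counts in control and 5910 to 7368 counts in ELAPOR1 libraries, which matched the labels of all 8. The 8 epithelial markers (among them EPCAM, KRT8, KRT18 and KRT19) summed to 12535 to 13858 CPM, counts scaled to a common library size of 1e6, in control and to 11676 to 12003 CPM in ELAPOR1 libraries. CLDN4 (-0.40) and KRT18 (-0.36) fell while KRT7 (0.31) and KRT19 (0.25) rose. Markers of other cell types were low. The 9 fibroblast markers summed to 4.43 to 5.54 CPM in control and 3.74 to 4.54 CPM in ELAPOR1 libraries, the 5 endothelial markers to 1.65 to 2.13 and 0.576 to 0.998 CPM (with VWF at a log2 fold change of -1.14, edgeR adjusted p = 0.00188), and the 5 acinar markers to at most 0.0599 CPM, while COL1A2, DCN, LUM, CDH5, CD3E, PRSS1, CPA1, CELA3A and PNLIP had no count. Of 6 leukocyte markers, summing to 82.0 to 88.5 CPM in control and 73.3 to 79.2 CPM in ELAPOR1 libraries, CD68 alone, which other cells also carry in their lysosomes, passed the filter on low counts. The part of these shifts in the results was not tested.

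The markers split. TNS4 more than doubled in ELAPOR1 libraries and UCA1 rose slightly, whereas FGFBP1, VGLL1, SCEL, CTSV and CST6 fell, by 56.1% for FGFBP1 and 10.8% for CST6. FAM83A was 4.74% lower and did not pass the test, and TP63 was hardly detected. Of the 9 markers, 8 passed the filter on low counts and were tested with edgeR. At a threshold of 0.05 on the adjusted p-value 7 of these were called (TNS4 and UCA1 higher, 5 lower), where 44.7% of all 13860 tested genes were called (22.6% higher and 22.1% lower). Control and ELAPOR1 libraries had separate ranges for 7 of the 8 (all but CST6), against 39.2% of all tested genes. A called change of at least 1 on the log2 scale was reached by TNS4 and FGFBP1, and by 2.27% of all tested genes. The median log2 fold change of the 8 tested markers was -0.31, beside 0.00087 over all tested genes, whose median size of change was 0.18.

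**Figure D1:**
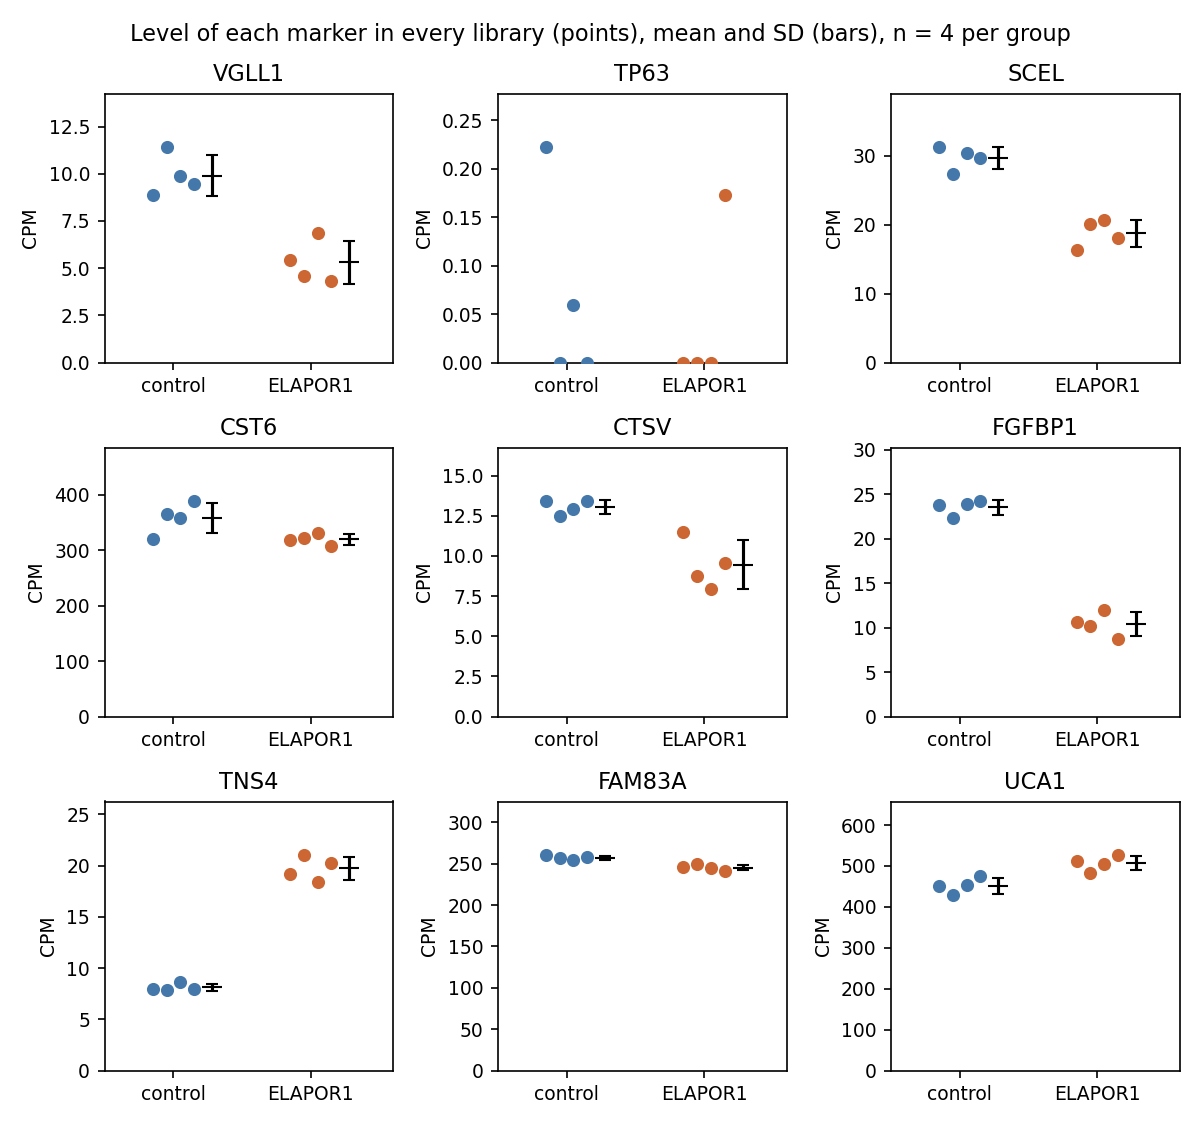
Level of each of the 9 markers in CPM (vertical axis, starting at 0) in each of the 4 control and 4 ELAPOR1 libraries (points), with the mean and SD beside them except for TP63, which is at 0 in most libraries. TNS4 lies between 7.91 and 8.63 CPM in control and between 18.4 and 21.0 CPM in ELAPOR1 libraries, while FGFBP1, VGLL1, SCEL and CTSV lie lower in every ELAPOR1 library than in any control library.

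In the control libraries the markers spanned a wide range of abundance per length of transcript. Divided by the length of merged exons, CST6 was the highest at 472 ± 36.4 CPM per kilobase (SD, n = 4), followed by UCA1 at 109 ± 4.77, FAM83A at 40.7 ± 0.428, FGFBP1 at 17.3 ± 0.629, SCEL at 7.06 ± 0.394, VGLL1 at 6.42 ± 0.699, CTSV at 2.78 ± 0.0895 and TNS4 at 1.68 ± 0.0697 CPM per kilobase. SCEL and VGLL1 overlapped between libraries, and all other neighbours in this order were separated. TP63 stood at 0.00945 CPM per kilobase. In ELAPOR1 libraries the first 5 places were unchanged, from CST6 at 421 ± 13.1 to SCEL at 4.46 ± 0.468 CPM per kilobase. TNS4, at 4.07 ± 0.238 CPM per kilobase (SD, n = 4), moved up into sixth place, where its libraries overlapped with those of SCEL and of VGLL1 (3.44 ± 0.735 CPM per kilobase). The most abundant markers, CST6, UCA1 and FAM83A, were thus those with the smallest changes among the 8 tested.

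The sequences upstream of VGLL1, SCEL and FGFBP1, the markers that fell most, are given to show what lies before their starts. They come from the RefSeq table of promoters (GRCh38.p14), which held VGLL1, SCEL, FGFBP1, TP63 and CTSV, 5 of the 9 markers. TNS4, CST6, FAM83A and UCA1 had no entry in that table. Each entry covers 250 bases before the RefSeq start, which lies 63 bases inside the GENCODE 29 gene span for VGLL1, 32 for SCEL and 501 for CTSV, and equals the GENCODE start for FGFBP1. Bases inside the gene span were left out, so 187 bases remained for VGLL1, 218 for SCEL and 250 for FGFBP1, and none for CTSV, whose window is not shown. The remaining bases were searched on both strands for GGAATG, the core of the TEAD site, for TGANTCA, the AP-1 site, and for CCAAT, the CCAAT box. Matches are in capitals, each sequence reads 5′ to 3′ along the gene, and VGLL1 and SCEL are on the plus strand and FGFBP1 on the minus strand.
VGLL1 (chrX:136531965-136532151): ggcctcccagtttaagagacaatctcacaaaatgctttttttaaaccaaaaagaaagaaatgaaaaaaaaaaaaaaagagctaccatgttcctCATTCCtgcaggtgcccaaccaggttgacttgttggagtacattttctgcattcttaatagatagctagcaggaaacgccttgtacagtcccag
SCEL (chr13:77535456-77535673): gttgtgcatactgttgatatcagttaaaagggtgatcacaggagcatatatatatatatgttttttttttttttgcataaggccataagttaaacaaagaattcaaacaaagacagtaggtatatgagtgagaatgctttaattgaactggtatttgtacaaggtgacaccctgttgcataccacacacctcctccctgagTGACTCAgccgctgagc
FGFBP1 (chr4:15938741-15938990): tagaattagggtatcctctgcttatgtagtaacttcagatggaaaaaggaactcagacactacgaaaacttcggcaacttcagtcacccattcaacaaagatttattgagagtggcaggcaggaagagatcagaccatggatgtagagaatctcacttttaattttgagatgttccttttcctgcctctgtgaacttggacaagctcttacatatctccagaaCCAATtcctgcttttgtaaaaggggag

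VGLL1 held 1 TEAD match, on the opposite strand (CATTCC), 94 to 89 bases before its GENCODE start. The same 187-base stretch held a TEAD match in 9.13% of 35116 entries of the table. SCEL held 1 AP-1 match (TGACTCA), 17 to 11 bases before its GENCODE start, a motif in 5.93% of entries over the same 218 bases. FGFBP1 held 1 CCAAT match, 27 to 23 bases before its start, as did 32.0% of entries over 250 bases at least once. The 3 matches shown are of 3 different motifs in 3 genes, and a match of letters is a description, not a bound site. TP63, searched over 250 bases but not shown, held 2 CCAAT matches and no TEAD or AP-1 match. Its 1 entry has a start upstream of the GENCODE start, and no start inside the gene was searched.

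VGLL1 (ENSG00000102243.13) is a cofactor that binds TEAD transcription factors in place of YAP or TAZ. In GRCh38 it spans 136532152 to 136556807 of chromosome X, plus strand. Its control libraries held 8.87, 11.4, 9.89 and 9.45 CPM and its ELAPOR1 libraries 5.46, 4.59, 6.84 and 4.33 CPM. Every ELAPOR1 library was below every control library, and the spread within a group was about 1 CPM (SD 1.08 in control and 1.13 in ELAPOR1, n = 4 each). The level was 1.88-fold lower with ELAPOR1 (-0.91 as log2, SE 0.13, edgeR adjusted p = 6.4e-07). Whether fewer cells carried these transcripts or each cell carried fewer cannot be told apart in bulk RNA. It was no longer called when tested against a 1.5-fold change (adjusted p = 0.116). Among the TEAD genes and the rival cofactors, TEAD1, TEAD4, YAP1 and WWTR1 (TAZ) were not called, with YAP1 at -0.072 (edgeR adjusted p = 0.0895) and TEAD4 at 0.031 (adjusted p = 0.664). YAP1 was called, at -0.11, when control replicate 4 was left out (adjusted p = 0.00233). Of the 8 tested genes in this list, 4 were called, against 44.7% of all tested genes. VGLL1, VGLL4 (-0.26, edgeR adjusted p = 3.7e-04) and TEAD3 (-0.16, adjusted p = 0.00428) fell and TEAD2 rose (0.21, adjusted p = 0.0343). The median log2 fold change of the 8 was -0.074. The call of TEAD2 was lost without control replicate 1, 2 or 3, without ELAPOR1 replicate 3 or 4, with DESeq2, and at a threshold of 0.01. VGLL2 had no count, VGLL3 had at most 4 counts in any library, and neither was tested. Within 1 Mb of VGLL1, 3 of 8 tested genes were called, all lower, where 22.1% of all tested genes were called lower. The 3 include FHL1, a LIM domain protein singled out after its value was seen, which went from a mean of 9.01 to 4.22 CPM (-1.10, edgeR adjusted p = 1.3e-08).

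TP63 (ENSG00000073282.13, chromosome 3, 189631416 to 189897279, plus strand) encodes p63. It had 4, 0, 1 and 0 counts in control and 0, 0, 0 and 3 counts in ELAPOR1 libraries. In the 5 libraries without a count, a count of 0 allows up to 3 counts, or 0.177 to 0.216 CPM (counting error only), so no difference in p63 transcripts was detectable at this depth and no fold is given (exact permutation p = 0.714, two-sided). The gene did not enter the fit across genes. TP73, which encodes the related factor p73, rose from 1.56 ± 0.459 to 3.60 ± 0.649 CPM (1.20, SE 0.23, edgeR adjusted p = 4.8e-05). Other genes that mark squamous cells were also scarce in this line: KRT5 and KRT6A had no count, and KRT14, DSC3, DSG3, PKP1, SOX2 and ZNF750 had at most 4 counts in any library. Of 29 genes in the p63 and squamous programme, 20 were tested and 11 were called, against 44.7% of all tested genes. Of these 11, 7 were higher and 4 lower, and the median log2 fold change of the 20 was 0.12. KRT15, a keratin of basal cells, fell (-0.71, edgeR adjusted p = 2.1e-05), as did TFAP2C, an AP-2 transcription factor (-0.43, adjusted p = 0.00123), while HAS3, a hyaluronan synthase, rose (0.54, adjusted p = 0.00125).

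SCEL (ENSG00000136155.17) encodes sciellin, a precursor of the cornified envelope of stratified epithelia, and spans 77535674 to 77645263 of chromosome 13, plus strand. It was at 31.2, 27.4, 30.4 and 29.7 CPM in control and at 16.3, 20.1, 20.6 and 18.0 CPM in ELAPOR1 libraries. The groups were well apart, since the highest ELAPOR1 library was below the lowest control library. The antisense SCEL-AS1 that overlaps it had no count. The fall was 37.0% (log2 fold change -0.67, SE 0.074, edgeR adjusted p = 3.4e-09), and it was not past a test against a 1.5-fold change (adjusted p = 1). Of 26 genes in the list, 13 had at most 3 counts in any library and 8 were tested. Of these 5 were called (44.7% of all tested genes were), 2 higher and 3 lower, with a median log2 fold change of -0.035. KLK10, a kallikrein-related peptidase, rose from 12.8 ± 1.39 to 23.8 ± 0.794 CPM (SD, n = 4 each; log2 fold change 0.90, edgeR adjusted p = 3.7e-11), and PPL, the scaffold protein periplakin, rose by 0.29 (adjusted p = 2.2e-09). Involucrin (IVL), the classical marker of the envelope, had 5 to 10 counts in control and 8 to 21 counts in ELAPOR1 libraries and was not tested. Of 6 tested genes within 1 Mb of SCEL, 2 were called, both higher, where 22.6% of all tested genes were called higher. The log2 fold changes of the 6 spanned -0.16 to 0.24.

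CST6 and CTSV belong to one enzyme system. CST6 encodes cystatin E/M, a secreted inhibitor of the lysosomal cysteine proteases legumain, cathepsin L and cathepsin V, and CTSV encodes cathepsin V, which is found mainly in skin, thymus and testis. CTSV (ENSG00000136943.11, chromosome 9, 97029679 to 97039643, minus strand) was at 13.4, 12.5, 12.9 and 13.4 CPM in control and at 11.5, 8.78, 7.92 and 9.58 CPM in ELAPOR1 libraries. The groups did not overlap, although ELAPOR1 replicate 1 came within about 1 CPM of the lowest control library. CTSV fell by 27.3% (log2 fold change -0.46, SE 0.10, edgeR adjusted p = 3.7e-04), with a call under every library left out. CST6 (ENSG00000175315.3, chromosome 11, 66011841 to 66013505, plus strand) was at 321, 365, 358 and 388 CPM in control and at 318, 322, 331 and 307 CPM in ELAPOR1 libraries. Here the groups overlapped, because control replicate 1 lay within the ELAPOR1 range. The log2 fold change was small, at -0.16 (SE 0.045, edgeR adjusted p = 0.00628). It lies near the median of -0.10 of the 79 tested genes within 1 Mb. Of these 79, 29 were called lower and 8 higher, against 22.1% and 22.6% of all tested genes.

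Among the other enzymes and inhibitors, LGMN (legumain) fell from 44.9 ± 1.99 to 37.3 ± 2.35 CPM (-0.27, edgeR adjusted p = 1.7e-04). CTSL (cathepsin L), the close relative of CTSV, fell from 78.8 ± 2.26 to 72.0 ± 4.63 CPM (SD, n = 4; log2 fold change -0.13, edgeR adjusted p = 0.0198). The CTSL call was lost without control replicate 3 (adjusted p = 0.0635), without ELAPOR1 replicate 4 (0.156) and with total count scaling (0.0527). Of 11 tested cysteine cathepsins and legumain, 7 were called, against 44.7% of all tested genes. Of these 7, 2 were higher and 5 lower, and the median of the 11 was -0.13. The number called was 4 without ELAPOR1 replicate 2 and also without ELAPOR1 replicate 4. Over all genes, 5557 to 6316 were called with libraries left out in turn, against 6193 with all libraries. The largest change was that of CTSF, a gene below 1 CPM (-1.19, edgeR adjusted p = 0.0154), whose call was lost without ELAPOR1 replicate 2 (adjusted p = 0.0522) or replicate 4 (0.0526). Of 12 cystatin family genes, 4 were tested and 3 fell, where 22.1% of all tested genes were called lower. These 3 were CST6, CSTB (-0.19, edgeR adjusted p = 9.8e-04) and CST3 (-0.14, adjusted p = 0.0114), the last not called without control replicate 2 (adjusted p = 0.0673).

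Because a ratio within a library does not depend on scaling, 3 ratios were compared, with Benjamini-Hochberg adjustment over the 3. The log2 ratio of CTSV to CTSL was -2.51, -2.63, -2.64 and -2.59 in control and -2.71, -3.05, -3.23 and -2.77 in ELAPOR1 libraries. Each ELAPOR1 library was lower than each control library, by 0.35 on average (two-sided exact permutation p = 0.0286, which is the minimum for 4 against 4 libraries, adjusted p = 0.0429). CTSV thus fell more than its relative. The log2 ratio of CST6 to the sum of CTSV, CTSL and LGMN averaged 1.39 ± 0.079 in control against 1.43 ± 0.050 with ELAPOR1 (SD, n = 4). The groups overlapped, and the change of 0.042 was below the SD of either group (exact permutation p = 0.429, adjusted p = 0.429).

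**Figure D2:**
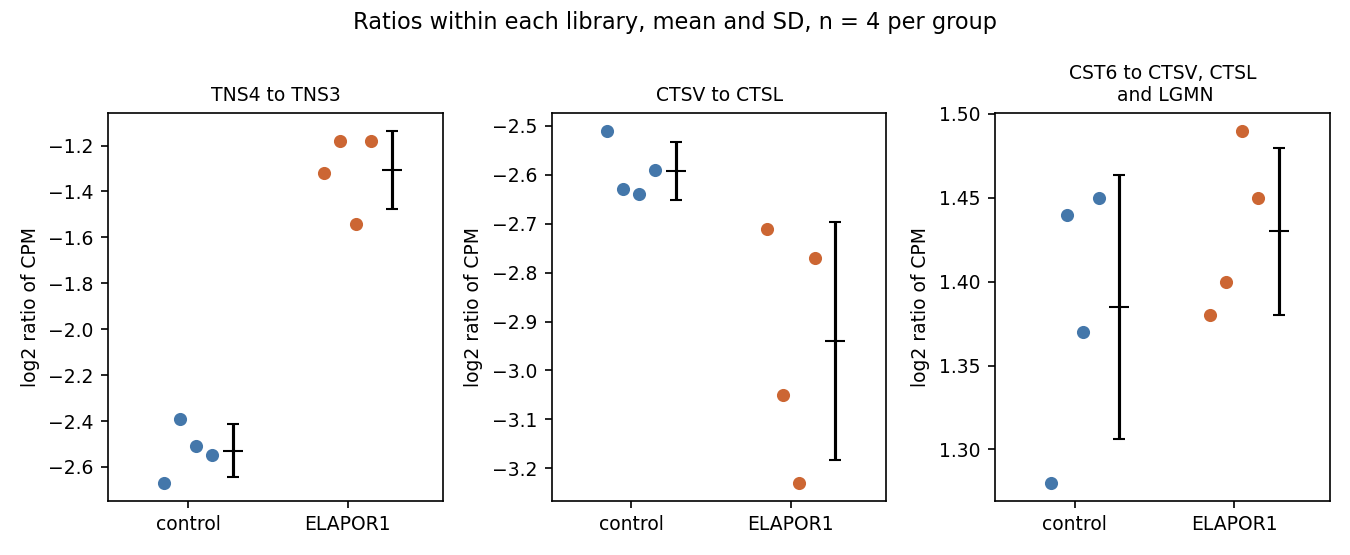
Log2 ratio of CPM within each library for TNS4 to TNS3, CTSV to CTSL, and CST6 to the sum of CTSV, CTSL and LGMN, with points for the 4 control and 4 ELAPOR1 libraries and the mean and SD beside them; the vertical axes differ and do not start at 0. The groups are apart for TNS4 to TNS3 (means -2.53 and -1.31) and for CTSV to CTSL (means -2.59 and -2.94), and overlap for the inhibitor ratio.

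FGFBP1 showed the largest fall among the markers. It encodes a secreted carrier that releases fibroblast growth factors from heparan sulphate in the matrix, and lies on the minus strand of chromosome 4 (ENSG00000137440.4, 15935569 to 15938740). It was at 23.8, 22.3, 23.9 and 24.2 CPM in control and at 10.6, 10.2, 12.0 and 8.77 CPM in ELAPOR1 libraries. The highest ELAPOR1 library stood far below the lowest control library. The level was 2.28-fold lower (log2 fold change -1.19, SE 0.086, edgeR adjusted p = 1.8e-13), and the call also held against a 1.5-fold change. The 6 tested genes within 1 Mb had log2 fold changes of -0.12 to 0.32 and a median of 0.016. Of the pathway around it, 21 of 33 genes were tested and 11 were called, against 44.7% of all tested genes. Of these 11, 5 were higher and 6 lower, and the median log2 fold change of the 21 was 0.045. FGFR1 had no count and FGF2 had at most 1 count in any library, while FGFR2, FGFR3, FGFR4 and FGFRL1 were tested. FGFRL1, a receptor that lacks the kinase domain, fell from a mean of 80.8 to 70.7 CPM (-0.19, edgeR adjusted p = 7.2e-04), FGFR4 fell (-0.31, adjusted p = 0.0138), and FGFR2 was not called (0.14, adjusted p = 0.711), whereas FGFR3 rose from a very low level, 0.425 ± 0.199 to 1.01 ± 0.170 CPM (1.24, adjusted p = 0.0086, SD, n = 4 each). The heparan sulphate proteoglycans GPC1 (0.42, edgeR adjusted p = 1.5e-10) and SDC4 (0.36, adjusted p = 1.8e-12) rose. DUSP6, a phosphatase induced by ERK signalling, fell from 37.4 ± 2.21 to 26.5 ± 0.697 CPM (-0.50, edgeR adjusted p = 2.7e-08). In the same list ETV5 (-0.35, edgeR adjusted p = 3.2e-07) and SPRED1 (-0.18, adjusted p = 5.9e-04) also fell, while SPRED2 rose (0.22, adjusted p = 1.0e-04). ETV4 (0.064), SPRY1 (-0.27), SPRY2 (0.056) and SPRY4 (0.045) were not called.

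TNS4 showed the largest rise. It encodes the short tensin also called CTEN, which lacks the actin-binding part of the other tensins, binds integrin tails and is known to displace TNS3 from them. TNS4 (ENSG00000131746.13) lies on the minus strand of chromosome 17, from 40475828 to 40501597. It was at 7.98, 7.91, 8.63 and 7.99 CPM in control and at 19.2, 21.0, 18.4 and 20.3 CPM in ELAPOR1 libraries. The groups were far apart, with each ELAPOR1 library more than 9 CPM above every control library. The rise was 2.43-fold (log2 fold change 1.28, SE 0.087, edgeR adjusted p = 4.6e-14) and was called against a 1.5-fold change. TNS3 stood at 47.0 ± 4.15 CPM in control against 48.8 ± 3.18 CPM with ELAPOR1 (log2 fold change 0.049, edgeR adjusted p = 0.532, SD, n = 4), with a log2 fold change of -0.0078 when control replicate 2 was left out. The log2 ratio of TNS4 to TNS3 was -2.67, -2.39, -2.51 and -2.55 in control and -1.32, -1.18, -1.54 and -1.18 in ELAPOR1 libraries. The ratio was 2.33-fold higher in ELAPOR1 libraries (exact permutation p = 0.0286, two-sided, adjusted p = 0.0429). TNS2 changed by -0.31 (edgeR adjusted p = 0.0332), a call lost without control replicate 1, 2 or 3 or without ELAPOR1 replicate 1, 3 or 4, with DESeq2, with no filter beyond 1 count, and at the stricter threshold of 0.01. TNS1 had at most 8 counts in any library. Of the binding partners, MET, the receptor that TNS4 is reported to stabilise, rose by 0.21 (edgeR adjusted p = 1.8e-06) and CTNNB1 (beta-catenin) by 0.28 (adjusted p = 3.8e-08), while ITGB1 changed by -0.10 (adjusted p = 0.00795) and EGFR by -0.016 (adjusted p = 0.75). Over 16 tested genes of this list, 9 were called, against 44.7% of all tested genes. Of these 9, 6 were higher and 3 lower, and the median of the 16 was 0.044. Of 30 tested genes within 1 Mb of TNS4, 14 were called higher and 6 lower, against 22.6% and 22.1% of all tested genes. The median of the 30 was 0.087.

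FAM83A (ENSG00000147689.16, chromosome 8, 123178960 to 123210079, plus strand) encodes a protein reported to act in EGFR signalling. It was at 260, 257, 254 and 258 CPM in control and at 246, 249, 245 and 241 CPM in ELAPOR1 libraries. All ELAPOR1 libraries were below all control libraries, and the difference was small beside those of the other markers. The log2 fold change of -0.070 (SE 0.029) did not pass (edgeR adjusted p = 0.0516). An exact permutation test of this gene alone gave p = 0.0286 (two-sided, unadjusted, n = 4 each). That value is the minimum for 4 against 4 libraries. It follows from groups that do not overlap, which held for 39.2% of all tested genes, so it adds nothing to the separate ranges. FAM83A was called under 6 of 18 alternatives, with adjusted p-values of 0.0299 to 0.0488, among them DESeq2, limma-voom and the fit without control replicate 1. It was not called under the remaining 12, among them total count scaling, the replicate block and the fits without each ELAPOR1 library. The 2 antisense genes that overlap it had few counts, at most 17 for AC068228.1 and at most 1 for FAM83A-AS1 in any library. Of its family, FAM83E fell (-0.72, edgeR adjusted p = 7.7e-06), FAM83D, a protein of the mitotic spindle, rose (0.39, adjusted p = 2.0e-09), and FAM83B, FAM83F, FAM83G and FAM83H were not called. Over 13 tested genes of this list 5 were called, against 44.7% of all tested genes. Of these 5, 3 were higher and 2 lower, and the median of the 13 was -0.013.

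UCA1 (ENSG00000214049.7, chromosome 19, 15828206 to 15836326, plus strand) is a long intergenic non-coding RNA first described in urothelial carcinoma. It was at 452, 428, 453 and 476 CPM in control and at 513, 484, 505 and 526 CPM in ELAPOR1 libraries. The groups lay close together without overlapping. It rose by 12.1% (log2 fold change 0.16, SE 0.032, edgeR adjusted p = 6.2e-05). The antisense LINC01764 that overlaps it had at most 2 counts in any library. The 33 tested genes within 1 Mb had a median log2 fold change of 0.014. Of these, 9 were called higher and 7 lower, against 22.6% and 22.1% of all tested genes.

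The full basal-like signature of Moffitt and colleagues, to which 8 of the 9 markers belong (all but TP63), had called genes in both directions. Of its 25 genes 15 were tested and 12 were called, against 44.7% of all tested genes (22.6% higher and 22.1% lower). Of these 12, 6 were higher and 6 lower, and the median log2 fold change of the 15 was -0.049. Among the 7 tested genes that are not markers described here, 4 were called higher and 1 lower, with a median of 0.19. S100A2, a calcium-binding protein and known p63 target, rose from 8.70 ± 0.704 to 18.3 ± 0.703 CPM (SD, n = 4 each; log2 fold change 1.07, edgeR adjusted p = 5.5e-12), the largest rise in the signature after TNS4. The 10 genes not tested include LY6D, SPRR3, SPRR1B, SERPINB3, SERPINB4, KRT6A and KRT6C, each with at most 9 counts in any library.

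**Figure D3:**
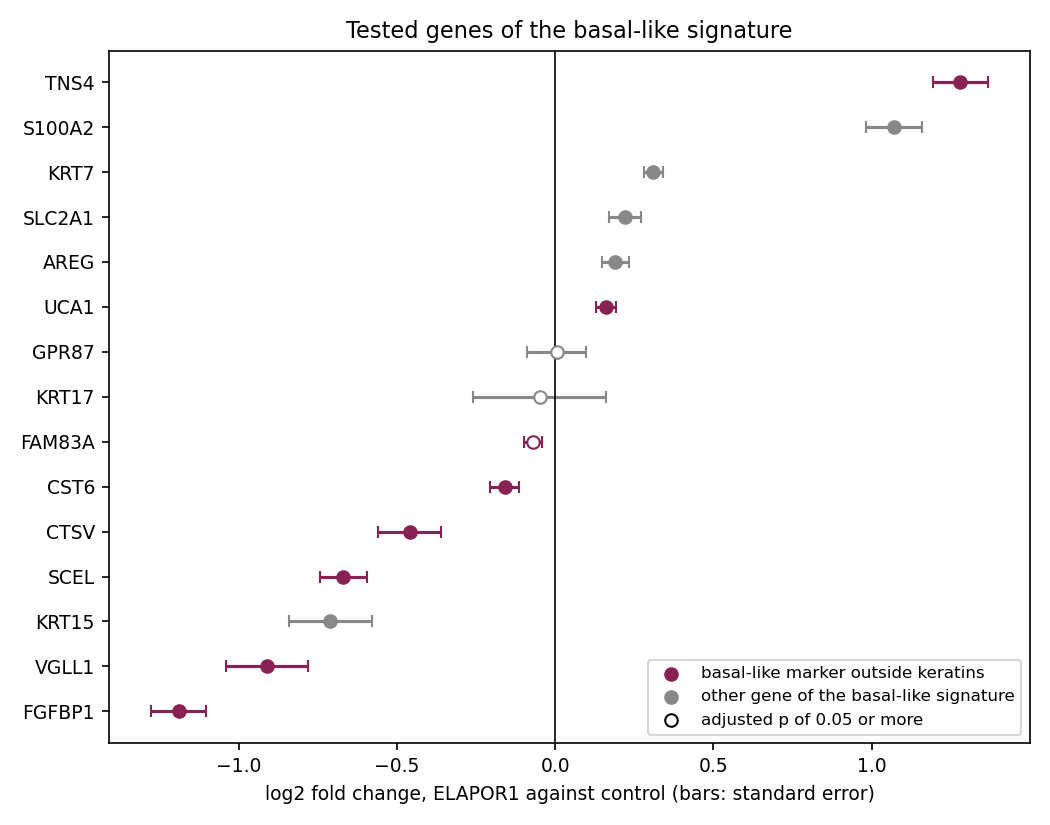
Log2 fold change of ELAPOR1 against control (horizontal axis) with its standard error for the 15 tested genes of the basal-like signature, markers described here in purple and other genes in grey; open points had an adjusted p-value of 0.05 or more. TNS4 (1.28) and S100A2 (1.07) lie at one end and FGFBP1 (-1.19) and VGLL1 (-0.91) at the other.

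**Figure D4:**
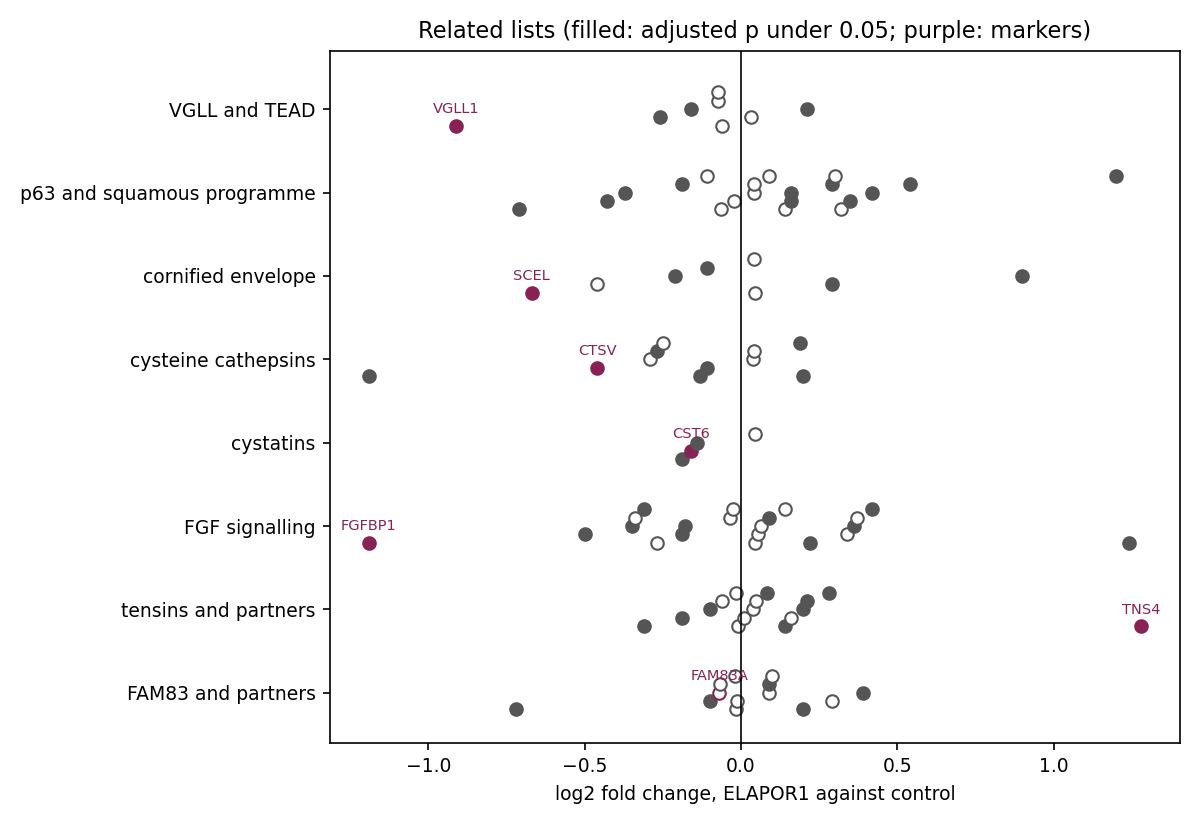
Log2 fold change of ELAPOR1 against control (horizontal axis) of every tested gene in the 8 lists of genes related to the markers, 1 point per gene, filled where the adjusted p-value was under 0.05 and purple for the markers. VGLL1, SCEL, FGFBP1 and TNS4 lie toward the ends of their lists, and the list medians run from -0.15 for cystatins to 0.12 for the p63 and squamous programme.

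Likeness of pattern was measured over 10703 tested genes that averaged 5 CPM or more. Those whose log2(CPM + 1) was most correlated with TNS4 over the 8 libraries were HMMR, CAVIN1 and EEF1A2, each with a Pearson r of 0.997. Their log2 fold changes were 0.30, 0.49 and 1.35. The genes most like FGFBP1 were ALDH3B1 (r = 0.995), NOS3 (0.994) and ABHD4 (0.993), with log2 fold changes of -0.64, -0.80 and -0.46. These values describe the same 8 libraries in 2 groups, and the points share that split.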

How the data were processed

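Expected counts per gene, not scaled between libraries, were made from the reads and deposited by the authors for 8 libraries. Per the submitters' processing notes, cutadapt, STAR, RSEM and DESeq2 were used with build hg38; versions, annotation release and strand setting are not given in the sources used here. Of the nonzero values 15.0% were not whole, but all 8 values of each marker, of CTSL, TNS3 and LGMN were. Of the gene identifiers, 58597 of 58870 were found, leaving out version suffixes, in GENCODE release 29 (GRCh38), the source of coordinates, overlaps and merged exon lengths.

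Values were rounded to integers. The fit used edgeR 4.0.16 under R 4.3.3 (filterByExpr, TMM, robust quasi-likelihood test, two-sided), ELAPOR1 against control without covariates. P-values were adjusted by Benjamini-Hochberg over 13860 tested genes, and genes were called at an adjusted p-value under 0.05. CPM are counts per 1e6 after TMM scaling. The SE is the size of the log2 fold change divided by the square root of F. The procedure was tested on simulated data with few changed genes and a common spread for all genes. That test does not cover data such as these, where 44.7% of tested genes were called. Replicate libraries of a group differed by more than counting noise (chi-square per degree of freedom 1.93 to 6.16), so none was a repeat deposit.

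The markers and lists were chosen with earlier results of these data known, and the lists come from memory of signatures and pathways. Genes named are all 9 markers, the called genes among the 4 largest changes of each related list, and TNS3, CTSL, LGMN, TEAD4 and YAP1, except that some genes under this rule are not reported here. Others (among them TEAD1, WWTR1, SDC4, FGFR2, FGFR4, FGFRL1, ETV4, ETV5, the SPRY and SPRED genes, ITGB1, EGFR, FHL1, IVL, the other FAM83 genes and genes without counts) were added for their role after values were seen. The 3 genes most like TNS4 and FGFBP1 were taken by correlation.

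Alternatives were DESeq2 1.42.0 size factors, total count and upper-quartile scaling, the DESeq2 Wald test, limma-voom (limma 3.58.1), other count filters, a block for the replicate number, leaving out libraries in turn, a threshold of 0.01 on the adjusted p-value, and edgeR's glmTreat against a 1.5-fold change. Plots were drawn with matplotlib 3.10.9.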

Additional observations from a re-analysis of the deposited data

Results flagged for a closer look

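In groups of 4 libraries, a library is given here when its gap to the nearest other is too large a share of the group's range by Dixon's test at 95%. Of 26 groups examined (the CPM of the markers, the 3 ratios and the total counts), 2 met this. Chance gives about 1.3 if values are normally distributed, which counts near 0 are not. Control replicate 3 had 8.63 CPM of TNS4, where the remaining control libraries spanned 7.91 to 7.99 CPM, a gap far smaller than the difference between groups. TP63 was at 0.173 CPM (3 counts) in ELAPOR1 replicate 4 and at 0 in the other ELAPOR1 libraries. Any group with counts in a single library meets this rule.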

How the results depend on the processing

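Of the markers, 7 or 8 were called under all alternatives other than the test against a 1.5-fold change, the eighth being FAM83A, and no tested marker changed direction. Against a 1.5-fold change, 2 markers were called, TNS4 higher and FGFBP1 lower (1 each), as were 215 of all tested genes (124 higher and 91 lower, against 6193, 3127 and 3066). Among tested genes, that test called 3 of 15 in the basal-like signature and 1 of 8 in the cornified envelope list. It called 1 of 21 in the FGF list and 1 of 16 in the tensin list. None was called of 20 in the p63 list, 11 cathepsins and legumain, 8 VGLL and TEAD genes and 13 in the FAM83 list. At an unadjusted p-value under 0.05, edgeR's glmTreat gave 1 in each of these lists. Of 4 tested cystatins it called 0 (0 unadjusted). Cathepsins called numbered 3 at an adjusted p-value under 0.01 and 4 to 8 with libraries left out. All genes called numbered 5557 to 6316 with libraries left out. Under all alternatives other than the test against a 1.5-fold change, they numbered at least 4682. The ratios of TNS4 to TNS3 and of CTSV to CTSL kept their direction without any 1 library (1.18 to 1.30 and -0.42 to -0.25), as did CST6 to its enzymes (0.0061 to 0.064), where 3 against 4 libraries cannot give an exact p-value below 0.0571. The mean CPM of TP63, ELAPOR1 minus control, ranged from -0.07 to 0.023 with 1 library left out, the positive value without control replicate 1. The log2 fold change of TNS3 ranged from -0.0078 (without control replicate 2) to 0.083. The cause was not tested.

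No pairing by replicate number was visible: deviations from the group means correlated at -0.112, 0.0355, 0.0217 and -0.0848 across 10703 genes for numbers 1 to 4, and control replicate 1 correlated best with ELAPOR1 replicate 4 (0.106). Such correlations cannot show whether libraries of the same number were prepared together, which the labels do not state. With the replicate block 7 markers and 5926 genes were called. The all-gene median shifted by at most 0.022 on the log2 scale, under total count scaling.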
